A study of Homo sapiens with 12 samples.

Results

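Cytoplasmic RNA that came down with a control immunoglobulin was compared between olaparib-treated and DMSO-treated MIA PaCa-2 cells, a human pancreatic ductal adenocarcinoma line. The comparison rests on 4 of the 12 arrays of the series, chosen by their labels: OLAP-IgG arrays 1 and 2 against DMSO-IgG arrays 1 and 2, paired by array number. OLAP-IgG cells received 10 µM olaparib and GEM-IgG cells 1 µM gemcitabine, each for 16 h in complete medium, and DMSO-IgG cells received the vehicle. After treatment the cells were fractionated, the cytoplasmic lysate was immunoprecipitated with IgG (IgG-IP) or with an antibody against the RNA-binding protein HuR (HuR-IP), and the recovered RNA was hybridised to Clariom D arrays, with 2 arrays in each of the 6 groups. By label the arrays of a group are biological replicates, but whether they came from separate cultures is not said, so a p-value measures only the spread between these arrays. Values are the deposited log2 signals, on which 1 unit is a factor of 2. RNA from such a precipitate is bulk RNA that stuck without specific antibody binding, so a lower level in the cytoplasm and a smaller recovered amount of a transcript cannot be told apart.

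Olaparib inhibits PARP enzymes, which mark DNA breaks with poly(ADP-ribose), and trapped PARP disturbs replication forks. Gemcitabine is a cytidine analogue that stops DNA synthesis directly. Replication-dependent histone mRNAs are made in S phase, end in a stem-loop in place of a poly(A) tail, and are known to decay quickly when DNA synthesis is blocked, whereas replacement histones come from ordinary polyadenylated mRNAs through the cell cycle.

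The 6 IgG-IP arrays resembled each other more by array number than by treatment. Over the 9364 genes with a mean IgG-IP signal above 6, the SD of the difference between array 1 and array 2 was 1.13 in OLAP-IgG, 1.16 in GEM-IgG and 1.03 in DMSO-IgG, against an SD of 0.39 for OLAP-IgG minus DMSO-IgG in pair 1 and 0.57 in pair 2. OLAP-IgG and DMSO-IgG arrays of the same number correlated at 0.991 (array 1) and 0.981 (array 2). The keratins KRT8 (9.63 to 11.01 in OLAP-IgG, 10.19 to 11.60 in DMSO-IgG) and KRT18, and the mesenchymal filament gene VIM, were bright, while the epithelial adhesion genes EPCAM (3.32 and 3.36 in OLAP-IgG, 3.51 and 3.35 in DMSO-IgG) and CDH1 lay near the antigenomic control probes, whose array medians were 2.94 to 3.01 on the IgG-IP arrays. Of 22 measured markers of other cell types, 3 had a mean above 6 (CD68, COL1A1 and COL1A2), the defining markers PTPRC, MS4A1, PRSS1 and CELA3A were between 2.77 and 4.45 on every OLAP-IgG and DMSO-IgG array, and 0 of the 22 passed the unadjusted threshold between OLAP-IgG and DMSO-IgG.

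No single gene passed the adjusted threshold between OLAP-IgG and DMSO-IgG. With limma and Benjamini-Hochberg adjustment over 33458 genes, 0 genes were higher and 0 lower (0% of genes in each direction), and the smallest adjusted p was 0.999. At an unadjusted p under 0.05 there were 674 higher genes (2.01%) and 851 lower genes (2.54%). Over both directions these were 1525 genes, fewer than the 1672.9 that this threshold would give if no gene differed. The split between directions depended on the scaling: after centring each array on the median of its brighter genes, 821 genes were higher and 611 lower. Adjusted calls appeared when 1 array was left out, 18 higher and 28 lower genes without DMSO-IgG array 1 and 10 higher and 5 lower without OLAP-IgG array 1. The median standard error of a difference was 0.29 log2 units. The adjusted p of every gene named below was 0.999 in this comparison, so each value is a description and none is a call. Where a gene is said to be past the unadjusted threshold or is among the named genes of a direction, that is a p under 0.05 before adjustment. The named genes of a direction also had to have no overlap between OLAP-IgG and DMSO-IgG arrays, so that trait was fixed by the choice. GEM-IgG minus DMSO-IgG shares the DMSO-IgG arrays, so a like value of the 2 drugs in these genes is not independent.

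**Figure D1:**
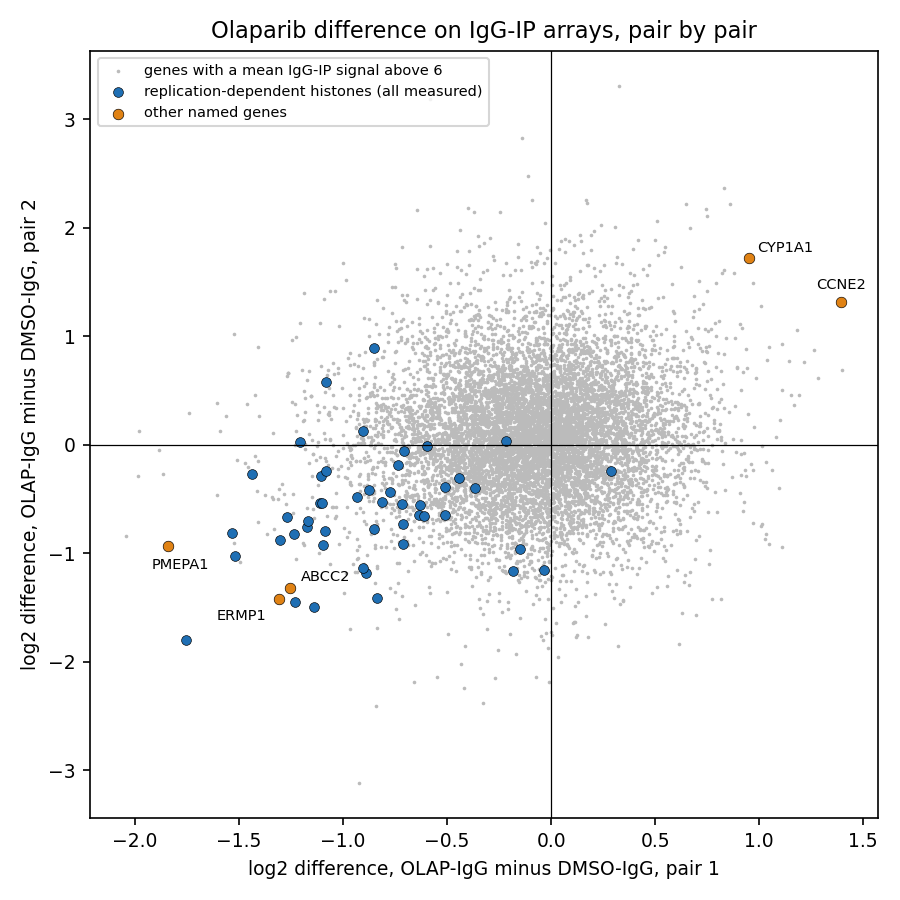
Log2 difference OLAP-IgG minus DMSO-IgG in pair 1 (x axis) and pair 2 (y axis). Grey points are the 9364 genes with a mean IgG-IP signal above 6, blue points the 47 measured replication-dependent histone genes and orange points 5 other named genes. The grey cloud has little tilt (Pearson 0.07 across genes), and most of the blue points lie at the lower left.

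Across genes, the 2 pairs were nearly unrelated. Among the 9364 brighter genes the olaparib differences of pair 1 and pair 2 had a Pearson correlation of 0.07 and a Spearman correlation of 0.06, given as a description since genes are not independent replicates, and 50.9% of genes had the same sign in both pairs. Only 3 of these genes were above 1 in both pairs, and 8 were below -1 in both. For GEM-IgG minus DMSO-IgG, which shares the DMSO-IgG arrays, the correlation between pairs was 0.49, with 172 genes above 1 and 149 below -1 in both pairs.

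Replication-dependent histones had the lowest median of the gene lists examined. The lists were chosen with earlier results of these data known, so this rank is a description and no test. Of 54 genes listed, 47 were measured, and their median difference was -0.67, beside -0.02 over all genes tested. At the unadjusted threshold 18 of the 47 were lower (38.3%, against 2.54% of all genes) and 0 were higher. In 41 of the 47 the OLAP-IgG array was below the DMSO-IgG array in both pairs, against 27.1% of all genes, and in 0 was it above in both. Both OLAP-IgG arrays were under both DMSO-IgG arrays in 30 of the 47, against 12.9% of all genes. Among genes with a mean IgG-IP signal above 6 it was 19 of 29 histones, against 6.73%. The list median was -0.88 in pair 1 and -0.65 in pair 2. Histone genes of 1 family are near-identical in sequence, so the signals of members may share RNA and the 47 are not independent.

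H2BC8, an H2B gene, had the lowest difference of any protein-coding gene named. Its signal was 11.84 and 11.29 in OLAP-IgG, 9.34 and 6.49 in GEM-IgG, and 13.60 and 13.08 in DMSO-IgG. The OLAP-IgG arrays lay between the other 2 groups with no overlap, 1.76 below DMSO-IgG in pair 1 and 1.80 below it in pair 2 (difference -1.78 ± 0.49 SE). H3C3, an H3 gene close to the lower end of the signal range, had 4.18 and 4.01 in OLAP-IgG, 3.88 and 4.25 in GEM-IgG, and 5.41 and 5.46 in DMSO-IgG (-1.34 ± 0.28 SE). Here the 2 drugs overlapped each other and neither overlapped DMSO-IgG. H3C1 had 5.63 and 6.23 in OLAP-IgG, 5.37 and 4.48 in GEM-IgG, and 7.15 and 7.25 in DMSO-IgG (-1.27 ± 0.35 SE). H2AC14, a bright H2A gene, had 14.79 and 15.68 in OLAP-IgG, 13.85 and 12.80 in GEM-IgG, and 16.32 and 16.49 in DMSO-IgG (-1.17 ± 0.40 SE). In both genes the 3 groups were in the same order, with gemcitabine lowest and no overlap. H1-3, a linker histone, had 5.24 and 4.52 in OLAP-IgG and 6.34 and 5.44 in DMSO-IgG (-1.01 ± 0.29 SE).

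**Figure D2:**
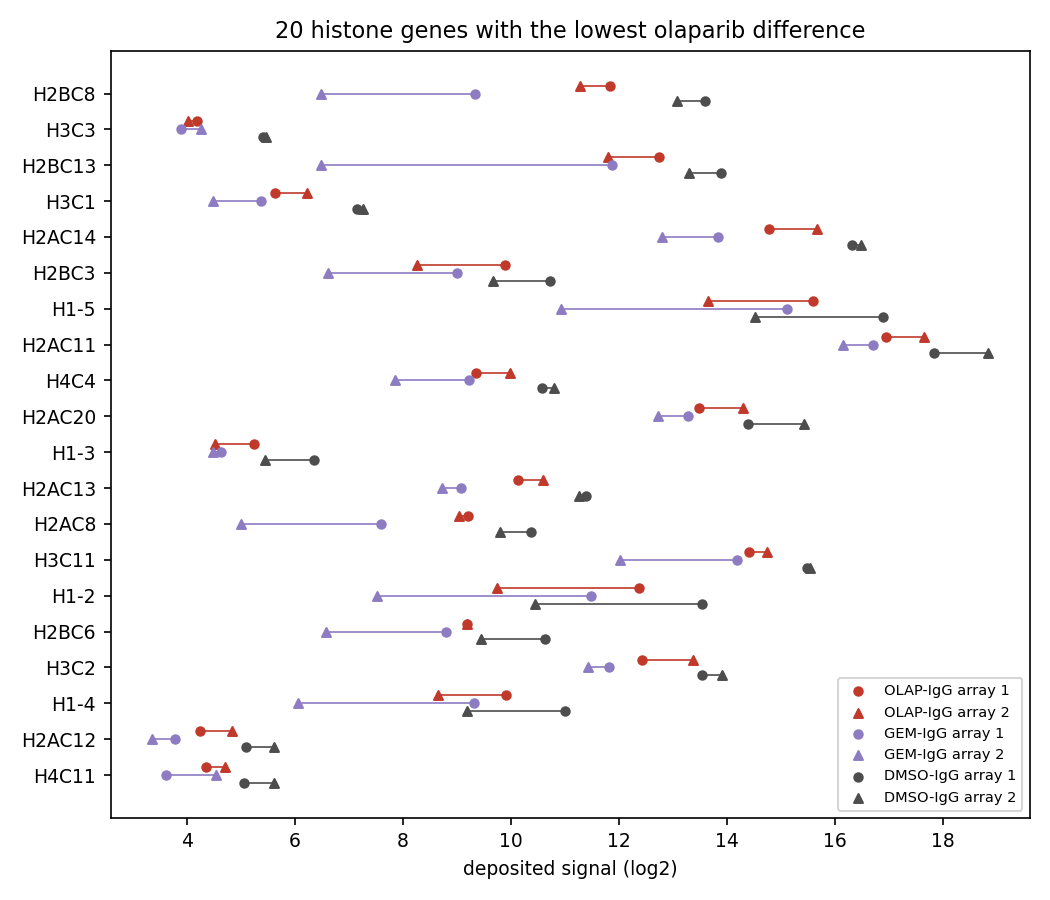
Deposited log2 signal (x axis) of the 20 replication-dependent histone genes with the lowest olaparib difference, 1 row a gene. Red marks are OLAP-IgG, purple GEM-IgG and grey DMSO-IgG, with a circle for array 1 and a triangle for array 2. H2BC8 at the top has OLAP-IgG at 11.84 and 11.29, between GEM-IgG and DMSO-IgG.

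All 5 histone families leaned the same way, by different amounts. The 5 H1 genes had a median of -0.93 with 3 lower at the unadjusted threshold, the 10 H2A genes -0.89 with 5, and the 8 H3 genes -0.75 with 4. The 11 H4 genes had a median of -0.64 with 4 lower, and the 13 H2B genes -0.61 with 2. All 8 measured H3 genes and 10 of 11 H4 genes were lower in both pairs, as were 11 of 13 H2B genes, 8 of 10 H2A genes and 4 of 5 H1 genes. The genes that did not follow were H1-1, dim throughout, at 3.89 and 3.58 in OLAP-IgG and 3.61 and 3.82 in DMSO-IgG (0.02), and H4C9 (0.02), together with H2AC4, H2AC15, H2BC5 and H2BC10, which were above DMSO-IgG in pair 2 alone. The brightest members differed in size: H4C5 was 18.42 and 17.89 in OLAP-IgG and 18.93 and 18.28 in DMSO-IgG (-0.45), H2AC11 was 16.94 and 17.66 in OLAP-IgG and 17.83 and 18.84 in DMSO-IgG (-1.04), and H2BC14 was 17.60 and 17.02 in OLAP-IgG and 18.31 and 17.75 in DMSO-IgG (-0.72).

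The size of the histone difference depended on single arrays. Without OLAP-IgG array 1 the median was -0.28 and 7 genes were lower at the unadjusted threshold, and without OLAP-IgG array 2 it was -1.13 with 36 genes. Without DMSO-IgG array 1 the values were -0.96 and 22, and without DMSO-IgG array 2 they were -0.56 and 9. The median stayed below 0 in each of these 4 fits. Without the array number as a block, 3 of the 47 genes were lower at the unadjusted threshold.

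The HuR-IP arrays carried the same treatments on other arrays, where the signal also depends on what HuR binds. Their DMSO arrays differed widely. Over the 9364 brighter genes the SD between array 1 and array 2 was 1.765 in DMSO-HuR (correlation 0.831), against 1.134 (0.937) in OLAP-HuR. The SD of OLAP-HuR minus DMSO-HuR was 0.724 in pair 1 and 1.684 in pair 2, which limits every HuR-IP difference given here. Between OLAP-HuR and DMSO-HuR 0 genes passed the adjusted threshold in limma, while 645 genes (1.93%) were higher and 2506 (7.49%) lower at the unadjusted one. Without OLAP-HuR array 1 the adjusted counts were 1278 higher and 2977 lower. The histone median there was -1.08 (-1.43 in pair 1 and -0.67 in pair 2), 22 of 47 were lower and 0 higher at the unadjusted threshold, and 38 of 47 were lower in both pairs, against 31.4% of all genes. Brighter genes were lower more often there: 23.1% of the 9364 were lower at the unadjusted threshold and 53.5% in both pairs, beside 17 (58.6%) and 25 (86.2%) of the 29 brighter histones. This stands on a shifted background: the 9364 brighter genes had a median of -0.58 on the HuR-IP arrays and -0.01 on the IgG-IP arrays, and after centring each array on its brighter genes the histone median was -0.46 on the HuR-IP arrays and -0.64 on the IgG-IP arrays. That centring also turned the split on the HuR-IP arrays, with 5202 genes higher and 951 lower at the unadjusted threshold. H2AC14 had 13.38 and 12.61 in OLAP-HuR and 16.02 and 15.02 in DMSO-HuR (-2.52). H1-2, at 12.37 and 9.74 in OLAP-IgG and 13.53 and 10.44 in DMSO-IgG (-0.93), had 7.88 and 7.47 in OLAP-HuR and 11.05 and 10.23 in DMSO-HuR (-2.97). Both genes were lower with the drug in both precipitates without overlap on the HuR-IP arrays. The difference between the antibodies was itself tested: 0 genes passed the adjusted threshold, 457 were higher (1.37%) and 825 lower (2.47%) at the unadjusted one, and of the 47 histones 2 were lower and 0 higher. After centring, the counts over all genes were 1159 higher and 243 lower.

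**Figure D3:**
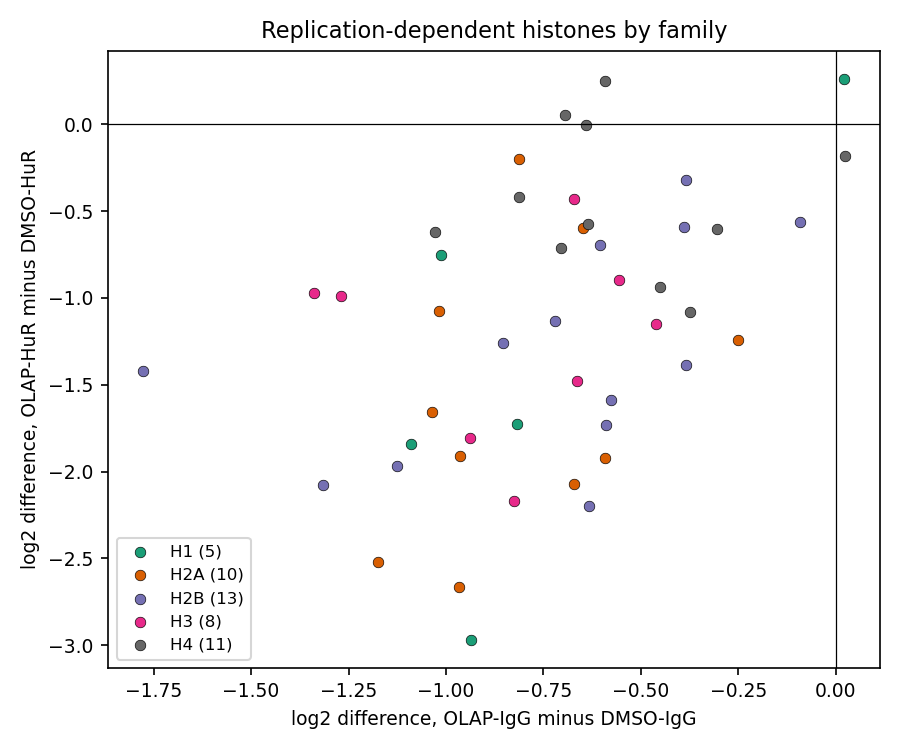
Log2 difference OLAP-IgG minus DMSO-IgG (x axis) and OLAP-HuR minus DMSO-HuR (y axis) of the 47 measured replication-dependent histone genes, coloured by family with the number of genes. The axes share no array. Most points are below 0 on both axes, with medians of -0.67 and -1.08, and the H4 genes lie nearest to 0 on the HuR-IP axis.

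Set against gemcitabine, histone genes were higher with olaparib. Between OLAP-IgG and GEM-IgG 0 genes passed the adjusted threshold in limma (smallest adjusted p 0.0519), and 1172 genes (3.5%) were higher and 1318 (3.94%) lower at the unadjusted one. The adjusted count depended on the fit: with only the 4 arrays compared, 60 genes were higher and 75 lower, and without GEM-IgG array 1 it was 95 higher and 87 lower. Of the 47 histones 36 were higher and 0 lower at the unadjusted threshold, with a median of 1.29 (0.62 in pair 1 and 1.94 in pair 2), and 42 were higher in both pairs, against 26.3% of all genes. The median GEM-IgG minus DMSO-IgG difference of the list was -1.91, a comparison that shares the DMSO-IgG arrays with that of olaparib. GEM-IgG array 2 was the lowest of the 6 IgG-IP arrays for 42 of the 47. How often that array was lowest over all genes was not counted, so this cannot be called particular to histones.

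Upstream sequence is shown for 3 of the histone genes with non-overlapping groups and, for contrast, for CYP1A1, a gene that lay above DMSO-IgG. Each is the 150 bases before the RefSeq start on GRCh38.p14, 5′ to 3′ on the gene's strand, with CCAAT boxes (CCAAT), TATA boxes (TATAAA), the octamer of H2B promoters (ATTTGCAT) and the core of the xenobiotic response element (GCGTG) in capitals wherever found on either strand.
H2BC8, chr6:26216689-26216838, minus strand: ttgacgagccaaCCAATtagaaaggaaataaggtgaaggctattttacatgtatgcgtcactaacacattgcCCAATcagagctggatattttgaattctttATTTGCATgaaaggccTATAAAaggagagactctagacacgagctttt
H3C1, chr6:26020301-26020450, plus strand: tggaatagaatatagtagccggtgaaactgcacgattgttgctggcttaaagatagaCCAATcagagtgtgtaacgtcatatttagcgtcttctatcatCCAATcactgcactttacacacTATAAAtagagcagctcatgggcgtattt
H2AC14, chr6:27814778-27814927, minus strand: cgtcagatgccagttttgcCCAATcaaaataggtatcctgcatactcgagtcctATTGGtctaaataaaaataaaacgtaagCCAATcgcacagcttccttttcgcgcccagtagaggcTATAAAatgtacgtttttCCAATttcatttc
CYP1A1, chr15:74725529-74725678, minus strand: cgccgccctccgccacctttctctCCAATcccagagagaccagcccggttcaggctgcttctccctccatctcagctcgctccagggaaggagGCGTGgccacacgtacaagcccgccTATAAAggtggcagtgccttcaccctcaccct
A sequence was at hand for 43 of the 47 histone genes. CCAAT was in 37 of these 43 (86%), against 24.4% of all 27305 promoters of the same length, and TATAAA in 24 (55.8%), against 7.05%. The octamer was in 11 of the 13 H2B genes and in 2 of the other 30, against 0.985% of all promoters, and GCGTG was in 23.4% of all promoters. These matches describe the letters in the window and say nothing of binding.

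Histone genes outside the replication-dependent class and the factors that make histone mRNA lay near 0. Both lists were drawn up after the histone values had been seen. Of 9 replacement histones measured, 0 passed the unadjusted threshold in either direction, with a median of -0.01 and a range of -0.45 (MACROH2A2) to 0.36 (H2AZ2). H2AZ1 had 15.58 and 14.96 in OLAP-IgG and 15.92 and 14.52 in DMSO-IgG, and H3-3B 14.55 and 13.40 in OLAP-IgG and 14.54 and 13.32 in DMSO-IgG, with overlapping groups in both. Of 10 transcription and processing factors, 0 passed either way and the median was -0.04. SLBP, which binds the histone stem-loop, had 13.19 and 12.58 in OLAP-IgG and 13.38 and 12.59 in DMSO-IgG, and NPAT, the coactivator of histone transcription, had 8.46 and 8.58 in OLAP-IgG and 8.31 and 8.33 in DMSO-IgG (0.20 ± 0.28 SE).

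**Figure D4:**
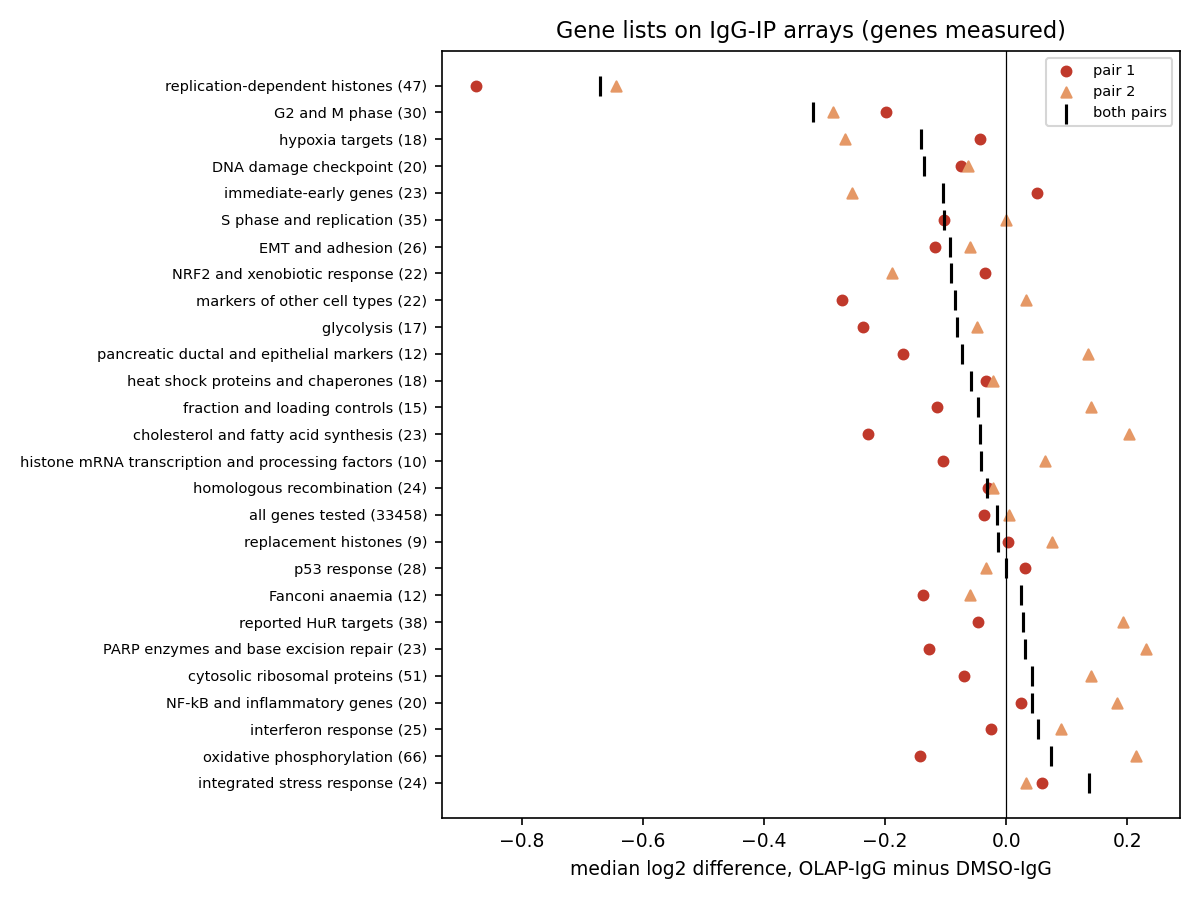
Median log2 difference OLAP-IgG minus DMSO-IgG (x axis) of each gene list in pair 1 (red circles), in pair 2 (orange triangles) and of the pair means (black bars), with the number of genes measured in brackets. The replication-dependent histones at the top have medians of -0.88 and -0.65, and the G2 and M phase list of -0.20 and -0.29. The other lists lie between -0.27 and 0.23 in either pair.

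Among other cell cycle genes, cyclin E2 was the clearest. CCNE2, the cyclin that drives entry into S phase, had 6.93 and 5.97 in OLAP-IgG, 8.91 and 8.66 in GEM-IgG, and 5.54 and 4.65 in DMSO-IgG. OLAP-IgG lay between the other groups with no overlap, above DMSO-IgG by 1.39 in pair 1 and 1.32 in pair 2 (1.36 ± 0.29 SE), and below GEM-IgG (-2.33, adjusted p = 0.0519). Over 35 S phase and replication genes the median was -0.10. At the unadjusted threshold 1 was higher (2.86%, against 2.01% of all genes) and 2 were lower (5.71%, against 2.54%). The lower ones were TK1, thymidine kinase (6.20 and 4.32 in OLAP-IgG, 7.06 and 5.01 in DMSO-IgG, -0.78 ± 0.27 SE), and RFC5, a clamp loader subunit (8.23 and 5.60 in OLAP-IgG, 8.40 and 7.54 in DMSO-IgG, -1.05 ± 0.38 SE). The step of TK1 was of similar size in both pairs, that of RFC5 lay almost wholly in pair 2.

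Genes of G2 and M phase had the next lowest median, -0.32 over 30 genes, with 21 lower in both pairs (70.0%, against 27.1% of all genes) and 3 higher in both (10.0%, against 23.3%). A single member, CDC20, the activator of the anaphase-promoting complex, was lower at the unadjusted threshold (3.33%, against 2.54% of all genes), and 0 were higher. CDC20 had 12.47 and 11.69 in OLAP-IgG, 11.27 and 10.58 in GEM-IgG, and 13.53 and 12.27 in DMSO-IgG (-0.81 ± 0.28 SE), so that OLAP-IgG array 1 overlapped the DMSO-IgG range. CDK1 went the other way, at 11.86 and 10.39 in OLAP-IgG and 11.39 and 9.66 in DMSO-IgG (0.60 ± 0.28 SE), which did not pass the unadjusted threshold. On the HuR-IP arrays the list median was -0.96, beside -0.58 for the brighter genes.

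The xenobiotic and transporter genes included values in both directions. CYP1A1, the aryl hydrocarbon receptor target that oxidises foreign compounds, had 7.25 and 7.31 in OLAP-IgG, 6.66 and 6.97 in GEM-IgG, and 6.29 and 5.59 in DMSO-IgG (1.34 ± 0.31 SE). Both OLAP-IgG arrays were above all 4 others. On the HuR-IP arrays it had 4.87 and 5.75 in OLAP-HuR and 5.40 and 5.43 in DMSO-HuR, and the difference between antibodies was -1.44 (adjusted p = 0.931). ABCC2, a drug and conjugate exporter, had 7.86 and 10.28 in OLAP-IgG, 8.04 and 10.00 in GEM-IgG, and 9.11 and 11.59 in DMSO-IgG (-1.29 ± 0.28 SE). Its 2 arrays differed by more than the drug difference, while both pairs gave nearly the same step, -1.25 and -1.32. ABCC3, a related exporter, had 5.74 and 7.55 in OLAP-IgG and 6.97 and 8.60 in DMSO-IgG (-1.14 ± 0.33 SE). Over the 22 genes of the list the median was -0.09. At the unadjusted threshold 1 was higher (4.55%, against 2.01% of all genes) and 2 were lower (9.09%, against 2.54%).

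Several other protein-coding genes were above DMSO-IgG on both OLAP-IgG arrays, the named ones at differences of 1.03 to 1.43. ADAM22, a synaptic adhesion protein, had 9.17 and 10.47 in OLAP-IgG, 9.71 and 11.47 in GEM-IgG, and 8.42 and 8.37 in DMSO-IgG (1.43 ± 0.39 SE). GAB1, a docking protein of receptor tyrosine kinases, had 7.77 and 8.54 in OLAP-IgG, 8.14 and 9.29 in GEM-IgG, and 6.80 and 7.05 in DMSO-IgG (1.23 ± 0.30 SE). In both genes GEM-IgG was also above DMSO-IgG without overlap, on the same DMSO-IgG arrays by which the genes were picked. SLC16A10, an aromatic amino acid transporter, differed by 1.22, SEL1L3 by 1.20, the kinase MAP3K13 by 1.19, the proteasome and BRCA2 partner SEM1 by 1.16 and the repressor NFIL3 by 1.13. Further down were BBX at 1.12, the splicing factor RBFOX1 at 1.09 and the phosphatase PTPRK at 1.03. On the HuR-IP arrays the olaparib difference was -1.27 for PTPRK, -0.75 for SLC16A10 and -0.73 for SEM1. It was -0.64 for RBFOX1, -0.31 for GAB1 and -0.27 for NFIL3, but 0.99 for MAP3K13, 0.62 for BBX, 0.24 for ADAM22 and 0.08 for SEL1L3. None of these passed the adjusted threshold, and the brighter genes had a median of -0.578 there.

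The lower protein-coding genes were led, after H2BC8, by DNAAF9 (-1.62), the cholesterol exporter ABCA1 (-1.44), PMEPA1 (-1.39) and ERMP1 (-1.37). ERMP1, an endoplasmic reticulum peptidase, had 9.61 and 9.99 in OLAP-IgG, 9.55 and 10.25 in GEM-IgG, and 10.92 and 11.42 in DMSO-IgG (-1.37 ± 0.27 SE). The 2 drugs overlapped, and GEM-IgG was also below DMSO-IgG, on the same DMSO-IgG arrays by which the gene was picked. PMEPA1, an inhibitor of TGF-β signalling, had 6.18 and 6.91 in OLAP-IgG, 5.83 and 6.11 in GEM-IgG, and 8.03 and 7.85 in DMSO-IgG (-1.39 ± 0.30 SE). On the HuR-IP arrays ERMP1 had 8.87 and 10.56 in OLAP-HuR and 10.20 and 11.71 in DMSO-HuR (-1.25), and PMEPA1 had 4.89 and 5.59 in OLAP-HuR and 6.49 and 7.73 in DMSO-HuR (-1.87). Both genes were lower in both pairs there, as were 53.5% of the brighter genes, whose median was -0.578. PLAC8 had 12.37 and 12.04 in OLAP-IgG, 12.92 and 12.59 in GEM-IgG, and 13.36 and 13.41 in DMSO-IgG (-1.18 ± 0.28 SE), with olaparib lowest, and on the HuR-IP arrays its difference was 0.15. ANKRD36C (-1.33), the coat protein COPB1 (-1.29), the adhesion receptor ADGRE5 (-1.29) and AGAP4 (-1.23) completed the named set.

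**Figure D5:**
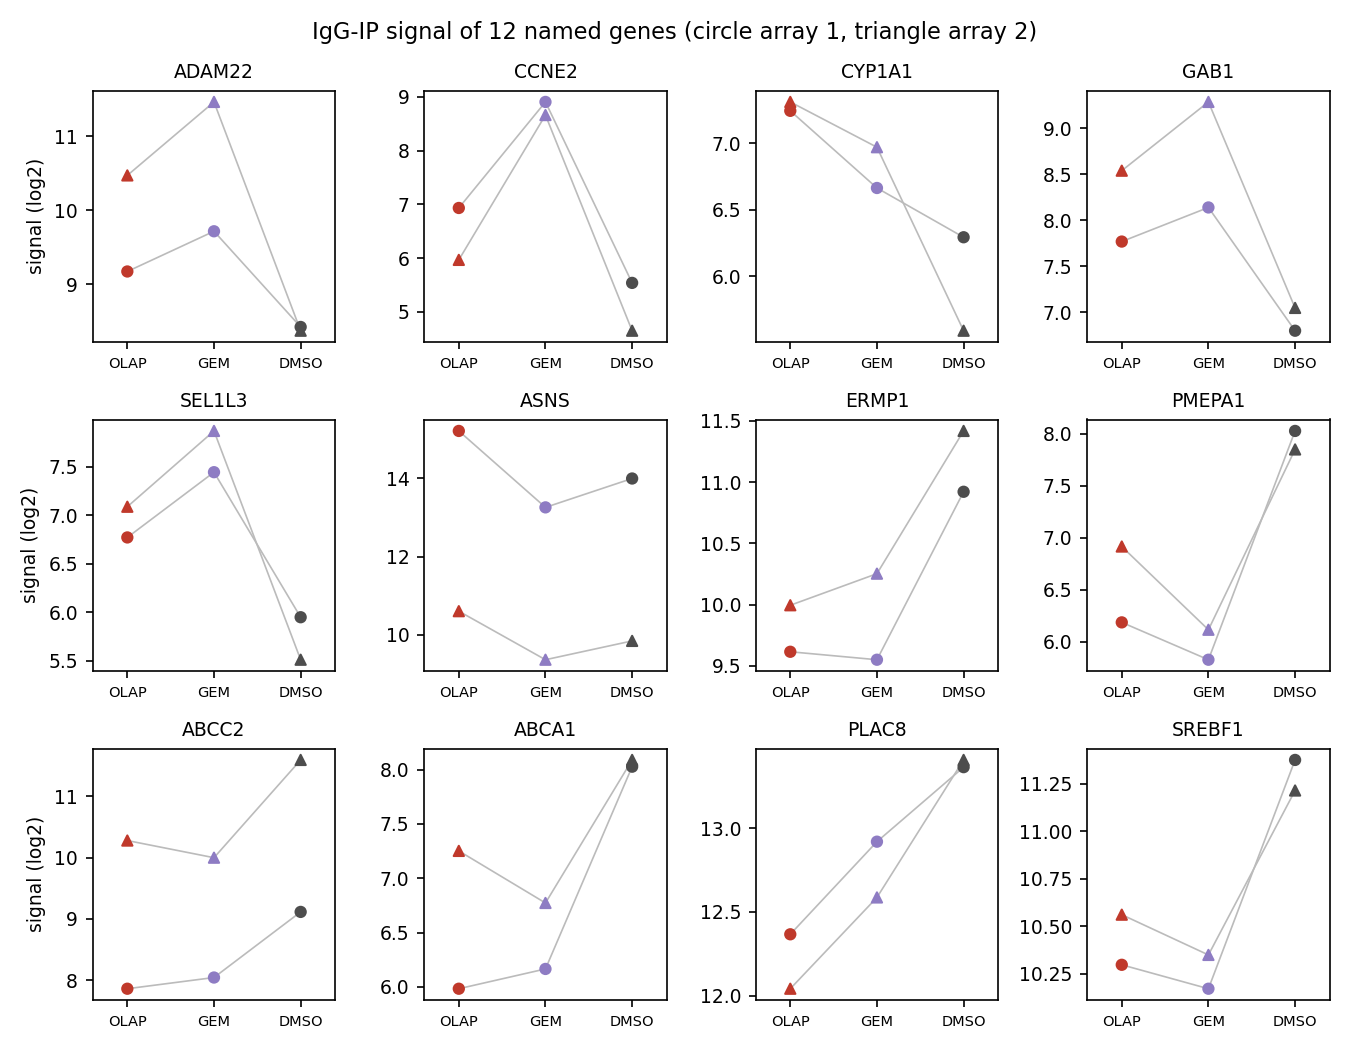
Deposited log2 signal (y axis, scaled for each gene) of 12 named genes on the IgG-IP arrays, with OLAP, GEM and DMSO from left to right, circles for array 1 and triangles for array 2, and grey lines joining arrays of 1 number. The first 6 genes lie above DMSO-IgG with olaparib in each pair, such as CYP1A1 at 7.25 and 7.31, and the last 6 lie below it, such as ERMP1 at 9.61 and 9.99.

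Lipid synthesis and amino acid genes gave scattered values. SREBF1, the transcription factor of fatty acid synthesis, had 10.30 and 10.56 in OLAP-IgG, 10.17 and 10.35 in GEM-IgG, and 11.38 and 11.21 in DMSO-IgG (-0.87 ± 0.28 SE), with both drugs below DMSO-IgG. Its target FASN, fatty acid synthase, had 8.76 and 7.96 in OLAP-IgG and 10.04 and 8.41 in DMSO-IgG (-0.87 ± 0.31 SE), and the 2 groups overlapped. On the HuR-IP arrays the differences were -2.04 for SREBF1 and -3.04 for FASN, beside a median of -0.578 for the brighter genes. SREBF1 and FASN were the 2 lower ones of 23 cholesterol and fatty acid genes (8.7%, against 2.54% of all genes). On that list 0 were higher, and the median was -0.04. In the integrated stress response 1 of 24 genes was higher (4.17%, against 2.01% of all genes) and 0 were lower. The higher one, ASNS, asparagine synthetase, had 15.21 and 10.60 in OLAP-IgG, 13.26 and 9.36 in GEM-IgG, and 13.99 and 9.84 in DMSO-IgG (0.99 ± 0.29 SE). Its 2 arrays lay far apart in every group, and within each pair olaparib was highest. Of 20 NF-kB and inflammatory genes 2 were higher (IL1B, 0.87, and NFKBIA, 0.85) and 1 was lower (IL1A, -0.81). These were 10.0% and 5.0% of the list, against 2.01% and 2.54% of all genes.

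DNA repair genes, the setting in which olaparib acts, are on short lists, with few members past the unadjusted threshold. Over 24 homologous recombination genes the median was -0.03. At the unadjusted threshold 2 were higher (8.33%, against 2.01% of all genes) and 1 lower (4.17%, against 2.54%). The nuclease-helicase DNA2 had 9.85 and 8.27 in OLAP-IgG, 10.43 and 9.56 in GEM-IgG, and 8.94 and 7.20 in DMSO-IgG (1.00 ± 0.30 SE), and on the HuR-IP arrays its difference was 0.84. The helicase BRIP1 differed by 0.65. Of 23 PARP and base excision repair genes the flap endonuclease FEN1 (0.77) and the PARP cofactor HPF1 (0.71) were higher (8.7% of the list). The ligase LIG3 was lower (4.35% of the list), at 9.79 and 9.56 in OLAP-IgG and 10.54 and 10.51 in DMSO-IgG (-0.85 ± 0.28 SE). CLSPN, the checkpoint mediator claspin, had 12.49 and 11.41 in OLAP-IgG, 14.28 and 13.25 in GEM-IgG, and 11.93 and 10.53 in DMSO-IgG (0.71 ± 0.27 SE). It was the 1 of 20 checkpoint genes to pass (5.0%, against 2.01% of all genes). Of 12 Fanconi anaemia genes 0 passed in either direction.

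The drug target and the antibody target were close to level. PARP1 had 13.59 and 13.17 in OLAP-IgG and 13.89 and 12.80 in DMSO-IgG, a difference of 0.03 with a 95% interval of -0.63 to 0.69. PARP2 had 10.30 and 9.27 in OLAP-IgG and 10.54 and 9.03 in DMSO-IgG (interval -0.62 to 0.61). ELAVL1, which encodes HuR, had 18.20 and 17.59 in OLAP-IgG and 18.19 and 17.68 in DMSO-IgG (interval -0.64 to 0.56). In all 3 genes the groups overlapped, and the intervals leave room for differences of over 0.5 either way. BARD1, the partner of BRCA1, had 7.64 and 7.73 in OLAP-IgG and 7.85 and 7.95 in DMSO-IgG (-0.21, interval -1.02 to 0.59), and on the HuR-IP arrays 11.31 and 12.72 in OLAP-HuR and 10.62 and 8.69 in DMSO-HuR (2.36). The difference between antibodies for BARD1 was 2.57 (adjusted p = 0.931). BRCA1 differed by 0.09 and WEE1, a checkpoint kinase, by 0.04 on the IgG-IP arrays. BRCA2 was not analysed here.

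Genes of the p53 response showed no common direction. Of 28 measured, 0 were higher and 1 was lower at the unadjusted threshold (XPC, -0.64), which was 3.57%, against 2.54% of all genes. The median was 0.00. CDKN1A, the p21 gene, had 4.05 and 3.51 in OLAP-IgG and 4.04 and 4.36 in DMSO-IgG, and GDF15 3.12 and 3.20 in OLAP-IgG and 2.99 and 3.75 in DMSO-IgG, both at or near the level of the control probes. MDM2 had 6.73 and 5.83 in OLAP-IgG and 6.40 and 4.83 in DMSO-IgG (0.67 ± 0.34 SE, not past the unadjusted threshold). ATF3, a stress-induced transcription factor, had 4.63 and 4.95 in OLAP-IgG and 5.00 and 4.79 in DMSO-IgG. The loading genes GAPDH (0.09) and ACTB (-0.15) and the nuclear RNA MALAT1 (-0.11) were near 0, GAPDH at the top of the signal range. ACTB was only at 6.62 and 6.39 in OLAP-IgG and 7.02 and 6.295 in DMSO-IgG, against 15.84 and 6.81 in DMSO-HuR, so it says little of loading. MALAT1 was bright, at 12.30 and 13.42 in OLAP-IgG and 12.67 and 13.28 in DMSO-IgG. Why a nuclear RNA was bright in a cytoplasmic precipitate was not tested. Of 15 fraction and loading controls 0 passed in either direction. The 66 oxidative phosphorylation genes measured also had 0, with a median of 0.07. The 51 cytosolic ribosomal protein genes had 2 lower (3.92%, against 2.54% of all genes) and 0 higher, with a median of 0.04. The lower ones were RPS3A, dim at 3.01 and 3.91 in OLAP-IgG and 4.39 and 5.07 in DMSO-IgG, and RPS26, at 15.37 and 15.62 in OLAP-IgG and 16.15 and 16.16 in DMSO-IgG, and both signals may include RNA of near-identical copies. Of 13 mitochondrially encoded mRNAs 0 were measured as single-symbol clusters.

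In the remaining lists at most 1 gene passed the unadjusted threshold. Where 1 was lower it made up 2.63% to 5.56% of the list, against 2.54% of all genes. IER2, an immediate-early gene, had 8.37 and 7.54 in OLAP-IgG and 8.71 and 8.71 in DMSO-IgG (-0.75 ± 0.30 SE), the 1 of 23 on its list, while on the HuR-IP arrays its difference was 0.80. FKBP4, an HSP90 cochaperone, had 11.20 and 8.92 in OLAP-IgG and 11.82 and 9.61 in DMSO-IgG (-0.65 ± 0.28 SE), the 1 of 18 heat shock and chaperone genes. ITGA3, an integrin subunit, had 11.99 and 12.54 in OLAP-IgG, 11.65 and 11.56 in GEM-IgG, and 12.84 and 13.03 in DMSO-IgG (-0.67 ± 0.28 SE), the 1 of 26 adhesion and epithelial-mesenchymal transition genes, with no overlap between any groups. Of 38 transcripts known as HuR targets, the kinase gene PIM1 was lower (-0.81 ± 0.30 SE), 0 were higher and the median was 0.03. MYC had 13.90 and 11.99 in OLAP-IgG, 13.10 and 10.57 in GEM-IgG, and 14.07 and 12.16 in DMSO-IgG, a step of -0.17 from DMSO-IgG in each pair. The 25 interferon response genes (median 0.05), 18 hypoxia targets (-0.14), 17 glycolysis genes (-0.08) and 12 pancreatic ductal and epithelial markers (-0.07) had 0 past the threshold in either direction.

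Among other RNA types small nucleolar RNAs stood at both ends. SNORD59A had 5.04 and 7.80 in OLAP-IgG, 4.42 and 4.21 in GEM-IgG, and 4.48 and 4.46 in DMSO-IgG (1.95 ± 0.58 SE), a difference carried mostly by OLAP-IgG array 2. SNORD1B had 4.79 and 5.10 in OLAP-IgG, 4.21 and 5.07 in GEM-IgG, and 6.05 and 7.71 in DMSO-IgG (-1.93 ± 0.34 SE), and on the HuR-IP arrays its difference was 0.30. Of 227 snoRNA genes 6 were higher at the unadjusted threshold (2.64%, against 2.01% of all genes) and 19 lower (8.37%, against 2.54%). Their median was -0.05, and only 35 of the 227 had a mean IgG-IP signal above 6. The 3130 long noncoding RNA genes had 63 higher and 75 lower with a median of -0.01, and the 1470 microRNA genes 45 higher and 40 lower with a median of 0.03. Both counts were near the share of all genes. MIR548AI (1.60), RNU6-1209P (1.37), RN7SKP237 (1.33) and RN7SKP8 (1.23) were the other named ones above DMSO-IgG, and MIR8075 (-1.79), RNU2-58P (-1.64), MELTF-AS1 (-1.55) and SNORD11 (-1.52) those below it. Several of these are copies of abundant small RNAs, whose signals may share RNA with other loci.

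Unlike CCNE2, some of the genes named for their contrast with gemcitabine lay close to DMSO-IgG with olaparib. SPRY2, a brake on growth factor signalling, had 12.04 and 11.15 in OLAP-IgG and 10.03 and 8.64 in GEM-IgG (2.26, adjusted p = 0.0519), with 11.92 and 10.72 in DMSO-IgG. CD83 had 6.69 and 6.85 in OLAP-IgG and 8.89 and 9.68 in GEM-IgG (-2.52), with 6.15 and 6.43 in DMSO-IgG. TRPV4, a calcium channel, had 4.61 and 4.95 in OLAP-IgG and 7.19 and 7.25 in GEM-IgG (-2.44), with 4.93 and 4.13 in DMSO-IgG. These 3 genes were picked by a rule that requires no overlap between the OLAP-IgG and GEM-IgG arrays. Their OLAP-IgG minus DMSO-IgG difference was 0.27 for SPRY2, 0.48 for CD83 and 0.25 for TRPV4. TGFB3 (-2.69), IGF2 (-2.47) and PARP14 (-2.43) were also lower with olaparib than with gemcitabine, and H2AC8 (2.82), H2BC26 (2.49) and H2BC14 (2.42) were higher.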

How the data were processed

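RNA from cytoplasmic IgG-IP and HuR-IP was measured on 12 Clariom D arrays (6 groups of 2). The authors deposited normalized log2 signals, obtained from cDNA of 10 ng RNA with Affymetrix Expression Console 1.4. RMA is named in the submitters' processing notes. RMA usually includes quantile normalization, under which a change shared by most transcripts may not show. The genome build is not given in the sources used here. Signals were used as deposited. Of 138745 features, 2995 were controls, and of 135750 transcript clusters 36176 had 1 gene symbol, 1119 several and 98455 none. Names were updated through RefSeq (GRCh38.p14), 25516 by gene ID, 9899 by symbol, 623 by older symbol, and 138 were kept as given. The brightest cluster of each gene was tested, which gave 33458 genes (17618 protein-coding).

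The 6 IgG-IP arrays were fitted in R 4.3.3 with limma 3.58.1 as 3 groups and the array number as a block (2 residual and 8.72 prior degrees of freedom), and Benjamini-Hochberg adjustment covered all genes tested, with a threshold of 0.05. The 6 HuR-IP arrays were fitted alike (3.08 prior degrees of freedom), and the difference between antibodies was tested in a fit of all 12. Lists of replacement histones and of histone mRNA transcription and processing factors were added after seeing the data. Same-numbered IgG-IP arrays deviated together from their group means (correlations of 0.80 to 0.83 between groups over the brighter genes), so the numbers were taken to pair the arrays. The labels give only the numbers. The number of arrays limits the precision. The fit was tested on simulated data.

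Members, gene lists and the rule for named genes were chosen with earlier results of these data known. The rule takes genes with a mean of at least 6 in the higher group and no overlap between the arrays of the 2 groups compared. They are past the unadjusted p where none pass the adjusted one. From OLAP-IgG against DMSO-IgG these are the 12 highest and 12 lowest protein-coding genes, and 5 and 5 of other types. From OLAP-IgG against GEM-IgG they are 5 and 5 protein-coding genes. Up to 4 a list by the moderated statistic and 15 fixed genes were added without those conditions. Promoter sequences are RefSeq's. The lower gene of the homologous recombination list is not reported here. Alternatives were the block, the arrays fitted, the prior, the scaling, a filter on dim genes (mean above 5), the mean of a gene's clusters and each array left out.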

Additional observations from a re-analysis of the deposited data

How the results depend on the processing

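With 2 arrays a group, the counts of calls depended on the fit. Adjusted calls between OLAP-IgG and DMSO-IgG stayed at 0 except when a single array was left out (0 to 18 higher, 0 to 28 lower; 18 and 28 without DMSO-IgG array 1, 10 and 5 without OLAP-IgG array 1, where 1 array stands for a group and is assumed to vary like the others). Unadjusted calls, 674 higher and 851 lower, became 132 and 196 without the replicate block, 246 and 318 with all 12 arrays and the block, 188 and 251 with 12 arrays and no block, and 276 and 308 among genes with a mean above 5, where fewer genes were tested. They ranged over 333 to 1488 higher and 579 to 1609 lower with 1 array left out. The replication-dependent histone values, whose alternatives were chosen after seeing the data, kept a median below 0 in all 13 alternatives (-0.64 to -0.77, and -1.13 to -0.28 with 1 array left out). Dropping the block, fitting all 12 arrays or only those compared, and the trended prior change only the spread. The median stayed at -0.671 there by design, so only the other alternatives could move it. The 18 lower histones became 3 without the replicate block, 7 with 12 arrays and the block, 4 with 12 and none, 30 with only the compared arrays, and 7 to 36 with 1 array left out. Against GEM-IgG, 0 adjusted calls became 60 higher and 75 lower with only the compared arrays, 15 and 19 with a trended prior, 12 and 21 among genes above 5, 4 and 7 with the mean of clusters, and 7 to 95 and 4 to 87 with 1 array left out. Unadjusted calls there, 1172 and 1318, became 276 and 336 without the replicate block, 437 and 471 with 12 arrays and the block, 304 and 314 with 12 and none, 601 and 760 among genes above 5, and 619 to 1760 and 1026 to 1873 with 1 array left out. On HuR-IP arrays, also with alternatives chosen after seeing the data, lower calls fell to 1408 without the replicate block, against 2506 with it. Centring gave 5202 higher and 951 lower there, and a histone median of -0.46 against -1.08. With 1 array left out there were 0 to 1278 higher and 0 to 2977 lower adjusted calls (1278 and 2977 without OLAP-HuR array 1), 81 to 2870 and 806 to 5164 unadjusted ones, and a histone median of -1.65 to -0.73. For the difference between antibodies, lower calls were 494 without the replicate block, centring gave 1159 higher and 243 lower, and leaving out 1 array gave 187 to 927 and 284 to 1576. The causes were not tested. For the 61 named genes past the unadjusted threshold, 0 of 790 values under the alternatives changed sign, and for the other named genes 49 of 1091 did. The 61 could hardly change sign: many were chosen for non-overlapping arrays, and some of the settings cannot move a difference. Their count is therefore no measure of stability. Signals near the control probes limit what can be read from dim genes.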

Other observations

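Small nuclear RNA genes, singled out after their values were seen, had a median difference of -0.22 between OLAP-IgG and DMSO-IgG over 47 genes. At the unadjusted threshold of limma 0 were higher and 3 lower (6.38%, against 2.54% of all genes), with 0 past the adjusted one. Of the 47, 24 had a mean IgG-IP signal above 6. Signals may include RNA of near-identical copies, so the 47 may not be independent. Both OLAP-IgG arrays were under both DMSO-IgG arrays in 11 of the 47, against 12.9% of all genes. Between OLAP-IgG and GEM-IgG the median was 0.38, with 13 higher and 0 lower at the unadjusted threshold, against 3.5% and 3.94% of all genes. On the HuR-IP arrays the olaparib difference of the type had a median of 0.13, with -0.70 in pair 1 and 0.44 in pair 2.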
